A study of Mus musculus with 4 samples.

Results

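The genes described here are 9 components and targets of bone morphogenetic protein (BMP) signalling in mouse embryonic stem cells (ESCs). They are the ligand gene Bmp4, the receptor genes Bmpr1a and Bmpr2, the signal transducers Smad1 and Smad5, the inhibitory Smad6, and the target genes Id1, Id2 and Id3. They were chosen by symbol, with earlier results of these data known. Each had 1 row of its own, giving 9 of the 14099 named rows. There were 4 libraries, 2 of Naa10-KO ESCs, labelled as a knockout of Naa10, and 2 of littermate wild type (WT) ESCs. Naa10 encodes the catalytic subunit of NatA, which acetylates the N-termini of many proteins. All came from the inner cell mass of blastocysts of Naa10-/X C57BL/6 females crossed with WT males of JF1, an inbred Japanese strain, so both genotypes share a hybrid background. Every culture was kept in serum-free N2B27 medium with the cytokine LIF, the Mek inhibitor PD325901 and the Gsk3 inhibitor Chir99021, for 5 passages on irradiated mouse embryonic fibroblasts (MEFs) and 5 more without them. No BMP ligand is named among the additions to the medium. The labels call the 2 libraries of each genotype biological replicates. The sources used here do not give the sex or number of lines, the deleted part of Naa10, or whether replicates were separate cultures. P-values therefore rest on the variation among these 4 libraries, and how much of it is technical is not known.

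BMP ligands bring together type I and type II receptor kinases at the cell surface. The type I receptor phosphorylates Smad1 and Smad5, which enter the nucleus with Smad4 and switch on target genes, among them the Id genes and the feedback inhibitor genes Smad6 and Smad7. Id proteins have a helix-loop-helix domain but no DNA-binding region, and they hold E proteins in pairs that cannot bind DNA. In mouse ESCs, BMP4 together with LIF sustains self-renewal in serum-free medium, and Id genes are the best known targets of that effect.

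Levels are in RPKM, read numbers scaled by transcript length and by the mapped reads of the library, so they can be compared between genes per length. Low values moved in steps of single reads, and the steps put the relative depth at 1.46 and 1.68 for Naa10-KO replicates 1 and 2, against 1 and 1.02 for WT replicates 1 and 2. The absolute depth is unknown, so no counting interval is given. Naa10 was read in a row joined with its neighbour Renbp, at 28.9 and 34.4 RPKM in Naa10-KO, against 105 and 106 RPKM in WT. Its log2 difference was -1.71 (SE 0.11, limma adjusted p = 0.0342), a call that ended when small RNA rows and those with a 0 in any library were not tested. The median absolute difference between the 2 libraries of a genotype was 0.25 on the log2 scale in Naa10-KO and 0.05 in WT. ESC markers were abundant in all 4 libraries, with summed levels over 8 genes of 3337 and 4192 RPKM in Naa10-KO and 4303 and 4396 RPKM in WT. The largest part of each sum was Dppa5a, in a row joined with Ooep. In Naa10-KO replicate 1 every marker but Pou5f1 lay below both WT libraries. The median log2 difference of the markers from the WT mean was -0.52 in that library and 0.23 in Naa10-KO replicate 2. Nanog had 175 and 312 RPKM in Naa10-KO, against 258 and 253 RPKM in WT.

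Promoter sequences were taken from RefSeq on build GRCm38.p6, which is not the build of the deposited values (mm9). The table matched 8 of the 9 genes, in 10 windows because Smad5 has 3 annotated starts, and Id1 had no entry. The sequences below are the 250 bases upstream of the start, 5′ to 3′ on the strand of the gene. They are shown for target genes of the pathway that were higher in each Naa10-KO library than in either WT library. Capitals mark GGCGCC, the core of GC-rich elements bound by Smad1 and Smad5, and GTCTG or its reverse complement CAGAC, the Smad box, searched on both strands.
Id2, chr12:25096093-25096342, minus strand: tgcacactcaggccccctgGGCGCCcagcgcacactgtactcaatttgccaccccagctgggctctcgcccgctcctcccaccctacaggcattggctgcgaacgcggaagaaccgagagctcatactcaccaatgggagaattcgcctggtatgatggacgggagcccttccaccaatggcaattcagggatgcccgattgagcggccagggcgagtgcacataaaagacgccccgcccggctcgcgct
Id3, chr4:136143572-136143821, plus strand: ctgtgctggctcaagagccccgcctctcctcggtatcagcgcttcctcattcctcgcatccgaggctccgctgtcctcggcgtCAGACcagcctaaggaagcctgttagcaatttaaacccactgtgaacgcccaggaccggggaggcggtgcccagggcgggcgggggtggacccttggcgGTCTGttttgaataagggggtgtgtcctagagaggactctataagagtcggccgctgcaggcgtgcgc
Smad6, chr9:64022060-64022309, minus strand: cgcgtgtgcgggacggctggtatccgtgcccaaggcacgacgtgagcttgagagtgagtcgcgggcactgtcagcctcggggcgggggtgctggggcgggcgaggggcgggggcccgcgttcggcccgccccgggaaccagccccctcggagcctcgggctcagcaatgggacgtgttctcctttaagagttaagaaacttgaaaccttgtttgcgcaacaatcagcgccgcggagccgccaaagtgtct

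The Id2 window held 1 GGCGCC, 231 bases before the start, and no Smad box. The Id3 window held 2 Smad boxes, 167 and 68 bases before the start, and no GGCGCC. Neither motif was found in the Smad6 window. GGCGCC also occurred upstream of Bmpr1a, Bmpr2 and 1 of the Smad5 starts, which makes 4 of the 10 windows. The Smad box also occurred upstream of another Smad5 start, which makes 2 of the 10 windows. Windows of 2 Smad5 starts overlap each other. The windows of these genes held 60% to 78.8% G and C, and no comparison with windows of like content was made. Of the 32536 distinct promoter windows of this length in the RefSeq table, 9.65% held GGCGCC and 42.2% held the Smad box. The 2 motifs did not overlap in these windows. A match describes the letters in the window and not a site in use.

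The Id genes stood highest among the 9 genes and were higher in both Naa10-KO libraries than in both WT libraries, but none of the 3 passed the test over all rows. Id1 had 86.3 and 96.2 RPKM in Naa10-KO replicates 1 and 2, against 50.7 and 44.4 RPKM in WT replicates 1 and 2. The groups did not overlap, and the lowest Naa10-KO library exceeded the highest WT library by more than the distance within either pair. The mean was 91.2 ± 7.03 RPKM in Naa10-KO and 47.5 ± 4.42 RPKM in WT (SD, n = 2 each), or 1.92-fold. On log2(RPKM + 1) the difference was 0.93 (SE 0.11, 95% interval 0.62 to 1.23, limma adjusted p = 0.0834), where the interval is not adjusted for the number of rows. Of all tested rows, 98.5% had a lower difference than Id1. In bulk RNA, more cells of a type and more RNA per cell cannot be told apart.

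Id2 had 71.3 and 56.2 RPKM in Naa10-KO, against 43.8 and 43.8 RPKM in WT. The WT libraries were nearly equal, and replicate 1 was the higher of the Naa10-KO libraries. The mean was 63.7 ± 10.7 RPKM in Naa10-KO and 43.8 ± 0.0497 RPKM in WT (SD, n = 2 each), or 1.46-fold, with a log2 difference of 0.52 (SE 0.14, 95% interval 0.14 to 0.91, limma adjusted p = 0.160).

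Id3 had 56.8 and 46.8 RPKM in Naa10-KO, against 36.1 and 38.0 RPKM in WT. It shared with Id2 the higher value in Naa10-KO replicate 1, whereas Id1 was higher in replicate 2. The mean was 51.8 ± 7.06 RPKM in Naa10-KO and 37.0 ± 1.38 RPKM in WT (SD, n = 2 each), or 1.40-fold, with a log2 difference of 0.47 (SE 0.12, 95% interval 0.13 to 0.81, limma adjusted p = 0.158).

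The 3 genes together reached 214 and 199 RPKM in Naa10-KO, against 131 and 126 RPKM in WT, or 1.61-fold. Id1 made up 40.2% and 48.3% of that sum in Naa10-KO, against 38.8% and 35.2% in WT. The largest share of Id1 was thus in Naa10-KO replicate 2, and replicate 1 lay near WT replicate 1. Id4, the remaining family member, was low in every library and did not follow the other genes, at 4.48 and 6.61 RPKM in Naa10-KO and 5.31 and 5.31 RPKM in WT (limma adjusted p = 0.929).

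**Figure D1:**
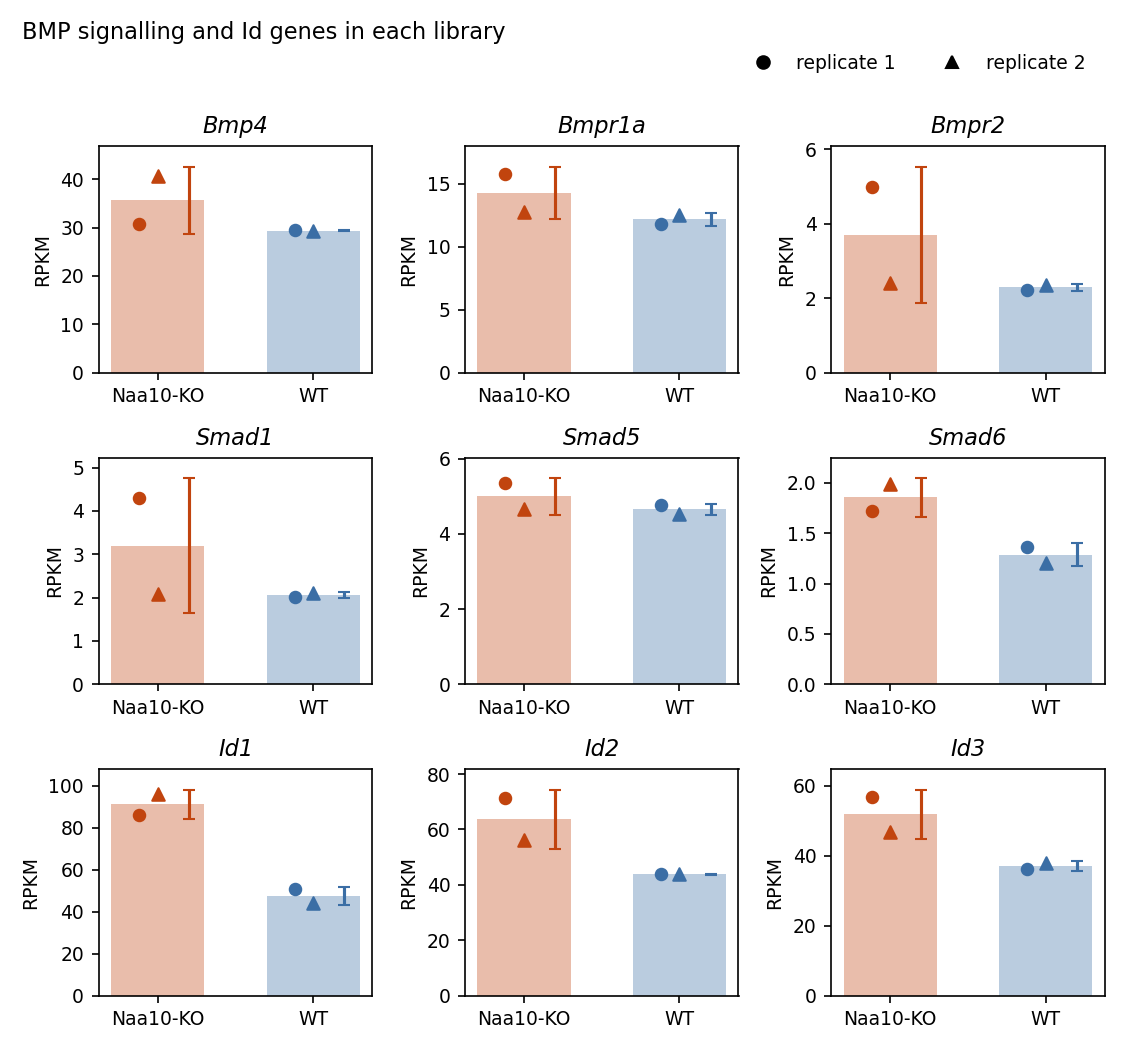
RPKM of the 9 genes in each library, one panel per gene with its own axis starting at 0. Circles and triangles are replicates 1 and 2, bars are group means and error bars are the SD (n = 2 each). The Id genes separate the genotypes in both replicates, while Bmpr2 and Smad1 are high in Naa10-KO replicate 1 alone.

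Differences in differentiation and feeder markers stood beside those of the Id genes. Trophoblast markers, 6 of 7 with a row, summed to 99.6 and 81.1 RPKM in Naa10-KO, against 47.0 and 40.4 RPKM in WT. Mesoderm markers, 4 of 5 with a row, summed to 11.1 and 6.06 RPKM in Naa10-KO, against 2.10 and 2.07 RPKM in WT. Both sums were higher in both Naa10-KO libraries, as the Id genes were. Each of the 6 trophoblast and 4 mesoderm markers with a row exceeded both WT libraries in both Naa10-KO libraries. Over all tested rows, 24.4% did so. The margin was small for Tfap2c in replicate 1 and for Kdr in replicate 2. Few genes made up most of each sum. Krt8, Krt18 and Tfap2c did so for trophoblast, while Cdx2 had 2.93 and 0.419 RPKM in Naa10-KO, against 0.353 and 0.286 RPKM in WT. For mesoderm it was the gene T, at 9.19 and 4.53 RPKM in Naa10-KO, against 1.18 and 1.04 RPKM in WT. Mixl1, Kdr and Hand2 were under 1 RPKM in every library. Elf5 and Mesp1 had no row, and no marker with a row was listed at 0. Fibroblast markers, all 11 with a row, summed to 738 and 319 RPKM in Naa10-KO, against 315 and 324 RPKM in WT. Fn1, Tagln and Acta2 made up most of that sum in Naa10-KO replicate 1, at 254, 192 and 132 RPKM. The markers did not move as one, and their median log2 difference from the WT mean stood at 0.65 for Naa10-KO replicate 1 but at -0.72 for the other Naa10-KO library. Fn1 was above WT in both Naa10-KO libraries (254 and 231 RPKM, against 188 and 189 RPKM in WT). Lum and Pdgfrb were below WT in both, but barely so in Naa10-KO replicate 1. There they had 1.06 and 2.29 RPKM, against 1.11 and 2.30 RPKM in the lower WT library of each. Col1a2 had 15.9 and 2.18 RPKM in Naa10-KO, against 6.58 and 7.60 RPKM in WT. Primitive endoderm markers, all 7 with a row, summed to 9.22 and 11.0 RPKM in Naa10-KO, against 9.24 and 7.23 RPKM in WT. The part of these cell types in the levels of the Id genes was not tested.

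Among all 9 genes, 0 passed limma's adjusted threshold of 0.05, where 0.764% of the 11912 tested rows did (0.218% as higher and 0.546% as lower in Naa10-KO). At an unadjusted p under 0.05 there were 3, namely Id1, Id2 and Id3, beside 22.1% of all tested rows. In 7 of the 9 genes each Naa10-KO library exceeded each WT library, beside 24.4% of all rows, and in 0 genes each was lower, beside 34.9%. The other 2 genes, Smad1 and Smad5, had overlapping groups. All 9 differences were above 0, beside 42.7% of all rows, with a median of 0.40 against -0.06 over all rows. The 9 genes belong to 1 pathway and share libraries, so they are not independent of each other. They were also chosen with earlier results of these data known, so these shares describe the set and do not test it.

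**Figure D2:**
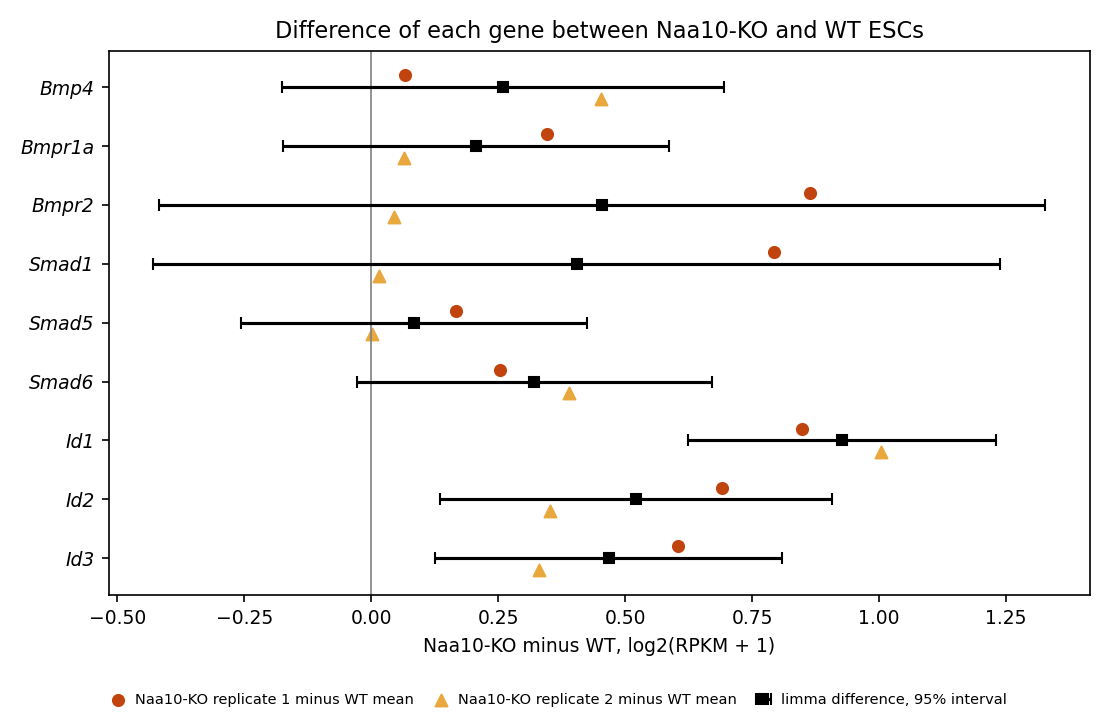
Difference of each gene between Naa10-KO and WT on log2(RPKM + 1). Black squares are the limma differences with their 95% intervals, circles and triangles are Naa10-KO replicates 1 and 2 minus the WT mean. The intervals of Id1, Id2 and Id3 lie above 0, and those of the other 6 genes include 0.

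The ligand gene Bmp4 had 30.8 and 40.6 RPKM in Naa10-KO, against 29.4 and 29.3 RPKM in WT. Its higher mean came mainly from Naa10-KO replicate 2, which stood 0.45 above the WT mean on the log2 scale, while replicate 1 stood 0.07 above it. The mean was 35.7 ± 6.92 RPKM in Naa10-KO and 29.4 ± 0.0909 RPKM in WT (SD, n = 2 each), with a log2 difference of 0.26 (SE 0.16, limma adjusted p = 0.392). GENCODE M21 places genes on the opposite strand within the spans of Bmp4 and Bmpr1a. No label states a stranded protocol, so reads of the opposite strands cannot be told apart there.

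Bmpr1a, the type I receptor that binds BMP4, had 15.7 and 12.8 RPKM in Naa10-KO, against 11.8 and 12.5 RPKM in WT. Naa10-KO replicate 2 lay just above the higher WT library. The log2 difference was 0.21 (SE 0.14, limma adjusted p = 0.426). Bmpr2, the type II receptor that activates type I receptors, had 5.00 and 2.40 RPKM in Naa10-KO, against 2.23 and 2.36 RPKM in WT. Only Naa10-KO replicate 1 stood clear of WT, at 2.18-fold of the WT mean, and replicate 2 was at 1.04-fold. The log2 difference was 0.45 (SE 0.31, limma adjusted p = 0.442), and the Naa10-KO libraries stood 0.82 apart on that scale.

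Smad1, a receptor-activated transducer, had 4.30 and 2.09 RPKM in Naa10-KO, against 2.01 and 2.11 RPKM in WT. It followed the pattern of Bmpr2, with replicate 1 at 2.09-fold of the WT mean and replicate 2 between the WT libraries. The log2 difference was 0.40 (SE 0.30, limma adjusted p = 0.465). Smad5, its close relative with the same role, had 5.35 and 4.66 RPKM in Naa10-KO, against 4.76 and 4.54 RPKM in WT. The groups overlapped, and the log2 difference was 0.08 (SE 0.12, limma adjusted p = 0.701).

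Smad6, which blocks the type I receptor and competes with Smad4 for Smad1, had 1.72 and 1.99 RPKM in Naa10-KO, against 1.37 and 1.20 RPKM in WT. It was the lowest of the 9 genes and lay higher in both Naa10-KO libraries. The mean was 1.86 ± 0.192 RPKM in Naa10-KO and 1.29 ± 0.115 RPKM in WT (SD, n = 2 each), or 1.44-fold, with a log2 difference of 0.32 (SE 0.13, limma adjusted p = 0.247). The added RPKM of 1 understates the fold of a gene this low.

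Ordered by mean level in Naa10-KO, the genes ran Id1, Id2, Id3, Bmp4, Bmpr1a, Smad5, Bmpr2, Smad1 and Smad6. The order in WT was the same. In Naa10-KO the libraries of Id2 and Id3 overlapped, as did those of Smad5 with Bmpr2 and of Bmpr2 with Smad1. In WT, Id1 exceeded Id2 by less than the SD of Id1.

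Bmpr2 and Smad1 were 2 of the 9 genes in which Naa10-KO replicate 1 stood at least 1.5-fold above each of the other 3 libraries, on log2(RPKM + 1), a measure chosen after their values were seen. Over all tested rows this share was 4.14%, and 1.08% stood apart in this way in Naa10-KO replicate 2, where 0 of the 9 genes did. The same library held high levels of 5 of the 11 fibroblast markers by that measure, namely Col1a1, Col1a2, Thy1, Acta2 and Tagln. Dcn and Postn, also made by fibroblasts, were at 29.6 and 4.78 RPKM and at 14.2 and 2.16 RPKM in Naa10-KO, against 17.0 and 20.1 RPKM and 13.1 and 14.1 RPKM in WT. The part of fibroblasts in the levels of Bmpr2 and Smad1 was not tested.

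Of 63 further gene symbols, those of the pathway and of the E proteins, 49 had a row and 38 were tested. They are called the other pathway genes below. Limma called 0 of the 38 and gave an unadjusted p under 0.05 for 8, beside 22.1% of all tested rows. Each Naa10-KO library was above WT in 15, beside 24.4% of all rows, and below WT in 10, beside 34.9%. The median log2 difference was 0.14, but its sign rested on Naa10-KO replicate 1, and it was -0.02 without that library.

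Among 3 tested genes of other BMP ligands, Bmp2, which acts through the same receptors, had 2.27 and 1.57 RPKM in Naa10-KO, against 0.960 and 0.963 RPKM in WT (limma adjusted p = 0.176). Bmp7 lay on the other side, at 0.823 and 1.85 RPKM in Naa10-KO, against 2.62 and 2.38 RPKM in WT (limma adjusted p = 0.265). Bmp8a had a log2 difference of -0.05 (limma adjusted p = 0.859). Bmp4 stood far above these ligand genes in every library.

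Of 8 tested receptor and co-receptor genes, 4 were above WT in both Naa10-KO libraries (24.4% of all rows) and 1 below (34.9% of all rows). Eng, which encodes endoglin, a co-receptor, had 25.3 and 24.9 RPKM in Naa10-KO, against 20.8 and 19.1 RPKM in WT (log2 difference 0.32, limma adjusted p = 0.168). The activin and BMP type II receptor gene Acvr2b had a log2 difference of 0.05 (limma adjusted p = 0.809). Rgmb, a co-receptor that binds BMP ligands, had 7.55 and 4.44 RPKM in Naa10-KO, against 3.92 and 4.13 RPKM in WT (limma adjusted p = 0.378). The type II receptor genes Bmpr2, Acvr2a and Acvr2b together summed to 16.3 and 14.6 RPKM in Naa10-KO, against 13.9 and 14.1 RPKM in WT.

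The 2 tested Smad genes outside the 9 lay on opposite sides of WT. Smad4, the partner shared by all receptor-activated Smads, had 25.3 and 24.6 RPKM in Naa10-KO, against 21.4 and 22.5 RPKM in WT (limma adjusted p = 0.302). Smad7, an inhibitory Smad like Smad6, had 14.0 and 13.3 RPKM in Naa10-KO, against 16.3 and 15.9 RPKM in WT (log2 difference -0.22, limma adjusted p = 0.259). Smad6 and Smad7 thus stood on opposite sides of WT in both Naa10-KO libraries, and neither passed. On the summed RPKM scale, Smad1 and Smad5 reached 9.65 and 6.75 RPKM in Naa10-KO, against 6.77 and 6.65 RPKM in WT.

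Among the pathway lists, extracellular antagonists and modulators had the widest spread between the Naa10-KO libraries, with a median gap of 1.72 on the log2 scale, and that of the fibroblast markers was 2.00. The median of the 6 tested genes relative to the WT mean, on the log2 scale, stood at 1.43 for Naa10-KO replicate 1 but at -0.26 for the other Naa10-KO library, and 4 of the 6 stood at least 1.5-fold above the other 3 libraries in replicate 1. Grem1, which binds and blocks BMP2 and BMP4, had 36.7 and 9.67 RPKM in Naa10-KO, against 7.18 and 8.11 RPKM in WT (limma adjusted p = 0.352). In Naa10-KO replicate 1 its level exceeded that of Bmp4, and in the other 3 libraries it was below Bmp4. The genes with the highest levels on this list did not show that pattern. Fstl1 had 51.0 and 37.6 RPKM in Naa10-KO, against 50.9 and 51.1 RPKM in WT (limma adjusted p = 0.486), and Twsg1, which binds BMPs together with chordin, had a log2 difference of -0.02 (limma adjusted p = 0.952).

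Fst was picked with its values in view. It encodes the activin and BMP antagonist follistatin and had 21.8 and 5.38 RPKM in Naa10-KO, against 4.79 and 4.74 RPKM in WT. The summed level of Grem1, Fst, Nog, Chrd and Nbl1 was 2.27 times that of Bmp4 in Naa10-KO replicate 1 and 0.441 times in replicate 2, against 0.518 and 0.533 times in WT. This sum covers part of the list and leaves out its most abundant genes, Fstl1 and Twsg1. Both were below WT in replicate 2, Twsg1 at 24.0 RPKM against 28.6 and 26.6 RPKM in WT. The high antagonist levels and the 5 high fibroblast markers were in the same library, and the part of fibroblasts in them was not tested. The Id genes were higher than in WT in both that library and replicate 2. In replicate 2 the sum of Grem1, Fst, Nog, Chrd and Nbl1 was 17.9 RPKM, against 15.2 and 15.6 RPKM in WT.

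**Figure D3:**
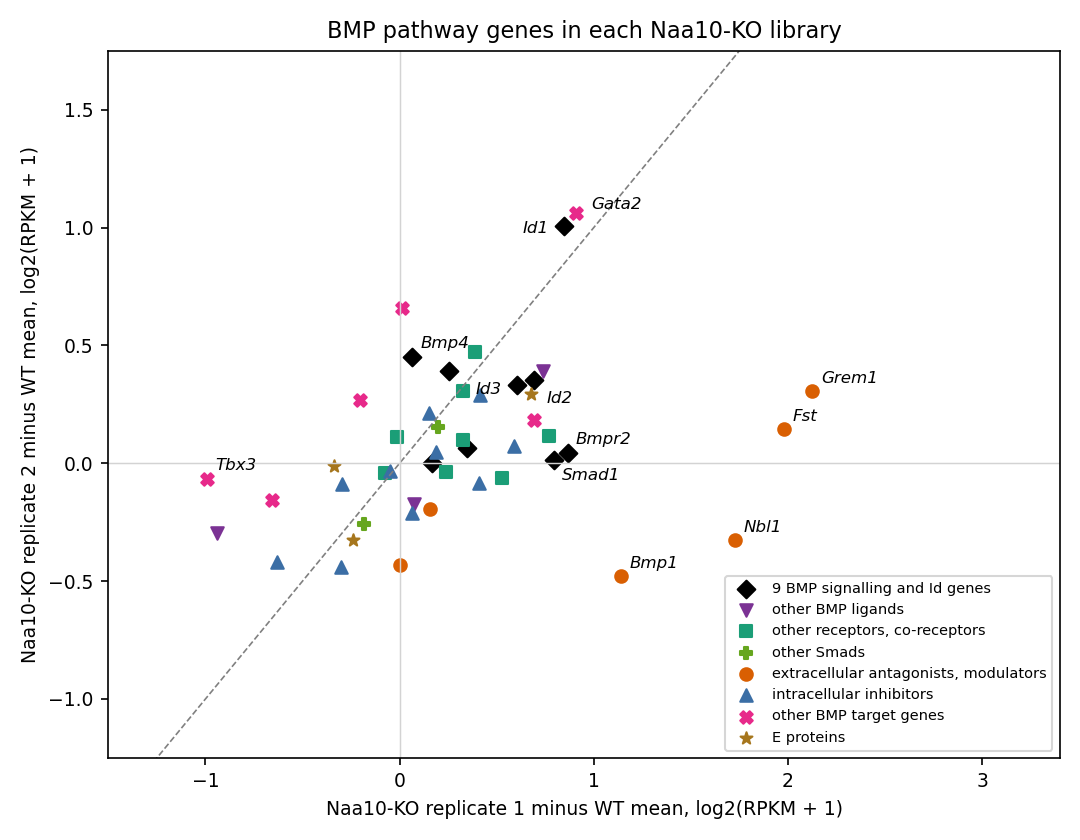
Tested genes of the pathway and of the E proteins, on log2(RPKM + 1). The x axis is the difference of Naa10-KO replicate 1 from the WT mean, and the y axis is that of replicate 2. The dashed line marks equal differences. Id1 and Gata2 lie high on both axes, while Grem1, Fst, Nbl1 and Bmp1 lie far to the right, high in replicate 1 alone.

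Of the 10 tested inhibitor genes that act inside the cell or at the membrane, 4 were above WT in both Naa10-KO libraries and 4 below, where the shares of all rows were 24.4% and 34.9%. Fkbp1a, which encodes a protein that binds type I receptors and keeps them inactive, had 236 and 217 RPKM in Naa10-KO, against 178 and 177 RPKM in WT (log2 difference 0.35, limma adjusted p = 0.136). Ski, a repressor that binds Smads, had 33.0 and 22.7 RPKM in Naa10-KO, against 21.8 and 21.3 RPKM in WT (limma adjusted p = 0.392). Ppm1a, a phosphatase of receptor-activated Smads, had a log2 difference of -0.07 (limma adjusted p = 0.733).

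Of 6 tested other target genes of the pathway, 2 were above WT in both Naa10-KO libraries and 2 below, shares near the 24.4% and 34.9% of all rows. Tbx3, a transcription factor gene of naive ESCs, had 51.3 and 98.5 RPKM in Naa10-KO, against 106 and 100.1 RPKM in WT (limma adjusted p = 0.413). Dusp9, a phosphatase of ERK that BMP4 induces in ESCs, had 55.1 and 87.0 RPKM in Naa10-KO, against 55.9 and 53.6 RPKM in WT (limma adjusted p = 0.457). It resembled Bmp4 in being high in Naa10-KO replicate 2 alone. Gata2, a transcription factor gene named after its values were seen, had the smallest p on this list, at 3.84 and 4.37 RPKM in Naa10-KO, against 1.60 and 1.55 RPKM in WT (log2 difference 0.99, limma adjusted p = 0.0863).

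Last came the E protein genes, which encode the partners that Id proteins bind. Tcf3 is an E protein symbol that was once used for Tcf7l1 too, but Tcf7l1 had a row of its own here, at 60.3 and 56.9 RPKM in Naa10-KO, against 38.9 and 38.0 RPKM in WT. Tcf3 had 34.0 and 42.9 RPKM in Naa10-KO, against 42.7 and 43.9 RPKM in WT (limma adjusted p = 0.484). Tcf12 was higher in both Naa10-KO libraries, at 14.2 and 10.7 RPKM, against 8.52 and 8.57 RPKM in WT (limma adjusted p = 0.210), and Tcf4 was lower in both, at 5.54 and 5.16 RPKM, against 6.68 and 6.78 RPKM in WT (limma adjusted p = 0.236). Together they summed to 53.8 and 58.8 RPKM in Naa10-KO, against 57.9 and 59.3 RPKM in WT. The ratio of summed Id1 to Id4 over these E protein genes was 4.07 and 3.50 in Naa10-KO, against 2.35 and 2.22 in WT. This ratio compares RNA levels per length and not proteins.

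**Figure D4:**
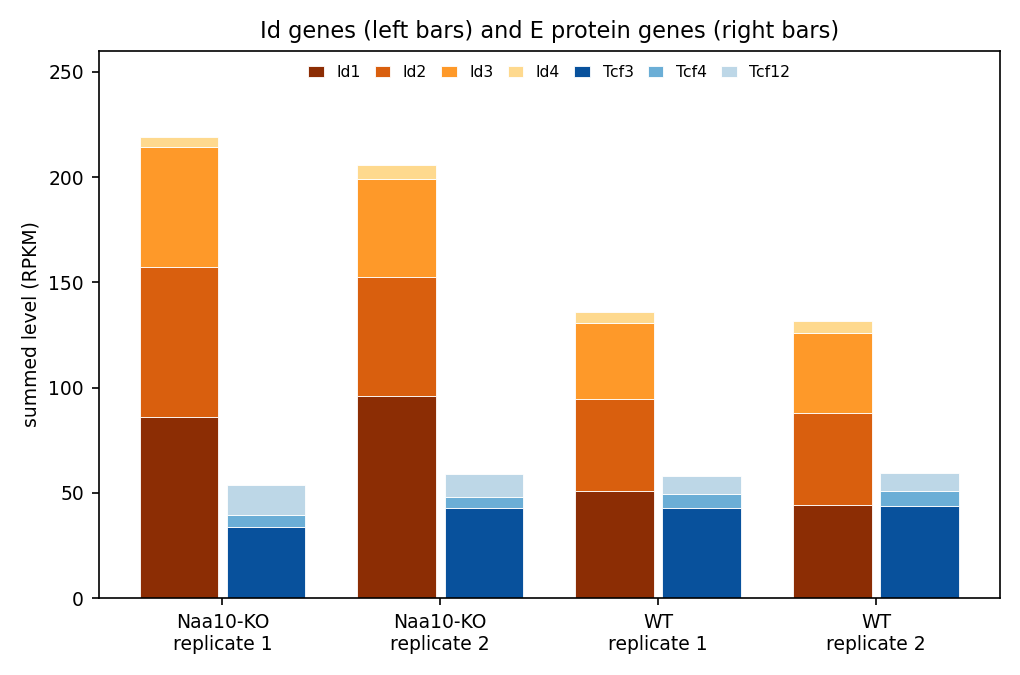
Summed RPKM of Id1 to Id4 (left bars, oranges) and of the E protein genes Tcf3, Tcf4 and Tcf12 (right bars, blues) in each library. The Id sums are 219 and 206 RPKM in Naa10-KO, against 136 and 131 RPKM in WT, while the E protein sums lie between 53.8 and 59.3 RPKM.

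The rows whose pattern over the 4 libraries was closest to that of Id1 were Dusp5, Ubqln2 and 3000002C10Rik, by Euclidean distance of log2(RPKM + 1) minus the WT mean among 11658 rows. Dusp5 had 67.4 and 75.5 RPKM in Naa10-KO, against 38.0 and 32.8 RPKM in WT, at a distance of 0.098. Ubqln2 had 58.5 and 68.7 RPKM in Naa10-KO, against 33.1 and 31.9 RPKM in WT, at a distance of 0.11. The third, 3000002C10Rik, had 197 and 225 RPKM in Naa10-KO, against 111 and 110 RPKM in WT, at a distance of 0.12. With 4 libraries, many rows can come this close.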

How the data were processed

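Polyadenylated RNA of 2 Naa10-KO and 2 WT mouse ESC libraries was broken into fragments of about 200 bp and read on an Illumina HiSeq 2000, per the labels' protocols. The authors deposited RPKM, 1 table per library, per the file headers. The submitters' processing notes name mm9 as the build, with Cufflinks and bedtools as tools. The sources used here name no aligner and no annotation. Each table had 14099 named rows, of which 404 joined several symbols and 323 were listed at 0 in at least 1 library; none of these was a row of the 9 genes.

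Genotypes were compared on log2(RPKM + 1) by a two-sided limma test (version 3.58.1, R 4.3.3) that lets the variance follow the mean level. It used the 11912 rows that reached 1 RPKM in 2 or more libraries, which all 9 genes did. Benjamini-Hochberg adjustment ran over all tested rows, with a threshold of 0.05. Residual degrees of freedom were 2, to which the prior added 1.94. Fold changes are ratios of mean RPKM. The code of the test was run on simulated data with the same spread in both genotypes. These libraries differ in that, so the run does not show how the test behaves on them. Python 3.11.15 and pandas 2.3.3 were used for the tables.

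The depth steps were read from rows of small RNAs and rows under 3 RPKM, as the ratio to WT replicate 1 that, with its small whole multiples, covered the most rows (within 0.02%). Of these rows, 77, 26 and 27 lay at that ratio itself for WT replicate 2, Naa10-KO replicate 1 and Naa10-KO replicate 2. The 9 genes and the lists were chosen with earlier results of these data known. One gene of the antagonist list is not reported here. The rule for named genes took the 9 genes, any list gene past the threshold, otherwise the 3 tested genes of each list with the highest mean, and the 3 rows closest to Id1. Alternatives were other pseudocounts, filters, scalings and variance models, a replicate block, and leaving out each library.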

Additional observations from a re-analysis of the deposited data

How the results depend on the processing

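The differences of all 9 genes stayed above 0 under every alternative that tested them. The filter at a mean of 5 RPKM tested only 5 of the 9. Without Naa10-KO replicate 1, the log2 differences of Smad5 and Smad1 were barely above 0, at 0.00084 and 0.015. Id1, with a log2 difference of 0.93, ranged between 0.83 and 1.02 over all alternatives, with limma adjusted p between 0.0376 (crossed pairing, below) and 0.143 (replicate block) while all libraries were kept. The number of rows past the threshold, 91, became 40 with no filter on low values and 0 without rows listed at 0 and small RNA rows, where 2625 rows had an unadjusted limma p under 0.05; none of these settings called any of the 9 genes. With a library left out, the count ranged from 12 to 7081, the calls among the 9 genes from 0 to 6, their median log2 difference from 0.33 to 0.60 (0.40 with all libraries) and that of the other pathway genes from -0.022 to 0.17 (0.14 with all libraries). The lone library of a group is then assumed to vary like the other pair, which was close in WT and wide in Naa10-KO. Calls of these fits are therefore not given. The other pathway genes changed sign without Naa10-KO replicate 1. Same-numbered libraries share only a number in the labels, and their deviations from the group means correlated at -0.21 over rows. A replicate block gave 44 rows and 0 of the 9 genes. Crossed pairing, chosen after seeing the data, gave 133 rows and 1 of the 9 genes. The RPKM tables give relative depth only, which limits what can be said of counting error for genes as low as Smad6, Smad1 and Bmpr2.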
